A study of Mus musculus with 6 samples.

Results

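The nuclear genes for respiratory complexes II to V and for cytochrome c were followed in blood stem cells of mice given granulocyte colony-stimulating factor (G-CSF), a cytokine that drives granulocyte production and moves stem cells out of the marrow. Genes were chosen by symbol: Sdha to Sdhd, symbols that begin with Uqcr, with Cox4 to Cox8 or with Atp5, and Cyc1 and Cycs. Of 19938 genes with a probeset of their own on the array, 48 met this rule. They were 4 genes of complex II, 9 of complex III, the cytochrome c gene, 17 of complex IV and 17 of complex V.

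The cells were bone marrow KSL SLAM cells, a sorted fraction rich in blood stem cells. It lacks lineage markers, CD48 and CD41, and it carries c-Kit, Sca-1 and CD150. The treated mice were given G-CSF for 7 days, as 2 injections under the skin per day of 125 mcg/kg, and the control mice were given PBS (saline) for 7 days. Each group was measured on 3 MoGene 1.0 ST arrays, each from the pooled cells of 5 to 10 mice, so p-values describe the spread between pools. No strain, age, sex or genotype was stated in the labels.

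Respiratory complexes pass electrons along the inner mitochondrial membrane. Complex II (succinate dehydrogenase) is also an enzyme of the tricarboxylic acid cycle, complex III hands electrons to cytochrome c, complex IV passes them to oxygen, and complex V uses the resulting proton gradient to make ATP. Quiescent blood stem cells are known to lean on glycolysis, and their activation is known to go with more mitochondrial respiration. The subunits encoded by mitochondrial DNA fall outside the rule.

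Values are log2 intensities, which can be compared between arrays but not between genes. Genes whose mean over all 6 arrays lay among the lowest 25% (under 5.15) were not tested, which left 47 of the 48. The exception was Cox7b2, a form of a complex IV subunit known from testis, with 3.98, 3.97 and 4.20 in the G-CSF arrays, against 3.68, 3.94 and 3.80 in the PBS arrays, under that limit on all 6 arrays. Groups were compared with limma over all 14994 genes above the limit, with p-values adjusted over all of them by the Benjamini-Hochberg method. Differences are G-CSF minus PBS. In such bulk samples, fewer cells of a type and less RNA per cell cannot be told apart.

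The promoters of 4 members are shown first, because nuclear respiratory genes are known targets of the factor NRF1 and of ETS factors such as GABP. They belong to the 3 members whose groups did not overlap, Sdha (chr13:74350211-74350490, minus strand), Cox6a1 (chr5:115348929-115349208, minus strand) and Atp5o (chr16:91931601-91931880, minus strand), and to Sdhb (chr4:140961021-140961300, plus strand), which had the largest negative difference. Each runs 5′ to 3′ on the gene's strand from 250 bases before to 30 bases after the start, from RefSeq (GRCm38.p6). Capitals mark matches to an NRF1 motif (GCGCA, any base, then GCGC) or an ETS motif (CCGGAAG), on either strand, and no NRF1 match overlapped an ETS match.
Sdha: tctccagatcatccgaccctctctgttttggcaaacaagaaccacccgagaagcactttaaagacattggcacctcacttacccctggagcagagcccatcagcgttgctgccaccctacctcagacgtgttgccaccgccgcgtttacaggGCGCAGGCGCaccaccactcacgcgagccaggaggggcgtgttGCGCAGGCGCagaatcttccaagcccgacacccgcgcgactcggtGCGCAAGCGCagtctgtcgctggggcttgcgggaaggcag
Cox6a1: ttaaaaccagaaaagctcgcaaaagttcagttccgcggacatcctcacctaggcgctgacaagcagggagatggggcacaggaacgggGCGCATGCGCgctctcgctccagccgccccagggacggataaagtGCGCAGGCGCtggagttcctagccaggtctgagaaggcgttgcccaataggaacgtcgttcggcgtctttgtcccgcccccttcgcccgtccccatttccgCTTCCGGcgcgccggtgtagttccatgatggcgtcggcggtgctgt
Atp5o: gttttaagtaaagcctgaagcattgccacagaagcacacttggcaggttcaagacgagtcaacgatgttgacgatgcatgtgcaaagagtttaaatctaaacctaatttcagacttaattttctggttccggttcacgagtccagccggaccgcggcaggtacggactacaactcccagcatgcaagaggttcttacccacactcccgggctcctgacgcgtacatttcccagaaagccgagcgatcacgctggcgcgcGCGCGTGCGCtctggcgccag
Sdhb: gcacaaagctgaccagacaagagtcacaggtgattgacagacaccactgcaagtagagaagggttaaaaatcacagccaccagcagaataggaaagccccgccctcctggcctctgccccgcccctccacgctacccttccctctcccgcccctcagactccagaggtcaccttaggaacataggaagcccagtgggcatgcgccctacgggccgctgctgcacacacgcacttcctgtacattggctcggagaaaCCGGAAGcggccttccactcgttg

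The Sdha window held 3 NRF1 matches, with first bases at -98, -55 and -10 relative to the start of the gene. Cox6a1 held NRF1 matches at -162 and -117 and an ETS match at -16. Atp5o held an NRF1 match at 10 and Sdhb an ETS match at 7. Windows were found for 36 of the 48 members, of which 10 (27.8%) held the NRF1 motif and 13 (36.1%) the ETS motif. Over all 27025 genes with a window of this length the shares were 4.98% and 9.48%. A match is a stretch of letters and not a measured binding site.

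None of the 47 tested members passed at an adjusted p under 0.05, although most were lower in the G-CSF arrays by their means. The smallest limma adjusted p was 0.761, and over all genes tested 0% passed as lower and 0.0267% as higher. Negative differences were found for 36 members (76.6%), against 49.7% of all genes tested, and positive ones for 11, against 50.3%. The median difference was -0.14 over the members and 0.0015 over all genes tested. At a limma unadjusted p under 0.05, 1 member (2.13%) was lower, against 3.3% of all genes, and 0 were higher, against 2.73%. The groups were separate, with every G-CSF array under every PBS array, in 3 members (6.38%), against 5.05% of all genes, and with every G-CSF array above in 0, against 5.77%. With all 6 arrays and no pairing, the members thus stood near the background by separation and by unadjusted p. By the share of negative signs they stood above it. With same-numbered arrays paired in the model (a replicate block), 7 members (14.9%) were lower at a limma unadjusted p under 0.05. The share of all genes was 4.92%, and the numbers were not shown to pair the arrays. With PBS replicate 1 left out, 11 members (23.4%) separated as lower, against 11.6% of all genes, and with G-CSF replicate 1 left out 3 (6.38%) did, against 9.1%. They were measured on the same 6 arrays, so their signs are not independent of each other.

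The shift rested largely on 1 array of each group, G-CSF replicate 1 and PBS replicate 3. In G-CSF replicate 1, 30 of the 47 members (63.8%) lay below all 3 PBS arrays, where 28.2% of all genes did. The count was 10 (21.3%, against 23.3% of all genes) in G-CSF replicate 2 and 8 (17%, against 23%) in G-CSF replicate 3. The mean over the 48 members was 8.13, 8.66 and 8.59 in G-CSF replicates 1 to 3, against 8.42, 8.59 and 8.89 in PBS replicates 1 to 3. By replicate number, the G-CSF mean was the lower one in replicates 1 and 3 and the higher one in replicate 2. The groups overlapped, with G-CSF replicate 1 the lowest and PBS replicate 3 the highest of the 6 arrays. The same 2 arrays had the lowest and the highest mean over all genes tested, 6.57 and 6.68. Over all probesets, G-CSF replicate 1 also had the smallest SD of log2 values, 1.79. The largest SD was 1.9528 in G-CSF replicate 2, and PBS replicate 3 had 1.9495. The part of these array-wide differences in the respiratory gene values was not tested.

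Leaving out arrays showed which of them the median rested on. With G-CSF replicate 1 left out, 26 of 47 differences were negative and their median was -0.05. With PBS replicate 3 left out, 27 were negative and the median was -0.03. With PBS replicate 1 left out, 35 were negative and the median was -0.32. Leaving out G-CSF replicate 2 gave -0.27, with 37 negative. For the remaining arrays the median was -0.22 (G-CSF replicate 3) and -0.22 (PBS replicate 2).

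Summed levels of neutrophil and granulocyte-monocyte progenitor markers were higher in each G-CSF array than in any PBS array, although no single marker passed the test, and they stayed so with any 1 marker left out. All 11 neutrophil markers were measured, none under the filter limit on all arrays. Their summed intensity was 29712 to 36944 in the G-CSF arrays, against 9731 to 17143 in the PBS arrays. Of these markers 10 were higher without overlap, against 5.77% of all genes, and Ly6g differed by -0.19 with overlap. The 6 granulocyte-monocyte progenitor markers summed to 1646 to 4552 in the G-CSF arrays, against 550.3 to 744 in the PBS arrays. Stem cell markers, of which 8 of 10 had a probeset of their own, summed to 2876 to 3899.8 in the G-CSF arrays, against 4134 to 4973 in the PBS arrays, and none was under the limit on all arrays. The separation of the stem cell sums rested on Kit, the receptor that also serves in the sort. Without Kit the sums were 2252 to 3309.5 in the G-CSF arrays, against 2893 to 4003.5 in the PBS arrays, with overlap. Erythroid markers (5 of 8) summed to 651 to 809 in the G-CSF arrays, against 889 to 1369.9 in the PBS arrays, and overlapped without Car2. Megakaryocyte markers (5 of 6) summed to 287 to 335 in the G-CSF arrays, against 422 to 574 in the PBS arrays. Lymphocyte markers (5 of 6, with Cd79a and Il7r under the limit on all arrays) summed to 256 to 342 in the G-CSF arrays, against 215 to 316 in the PBS arrays. G-CSF replicate 1, the lowest array for the respiratory genes, had the lowest stem cell sum of the 6 arrays and the lowest neutrophil sum of the G-CSF arrays. The part of these markers in the respiratory gene values was not tested.

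**Figure D1:**
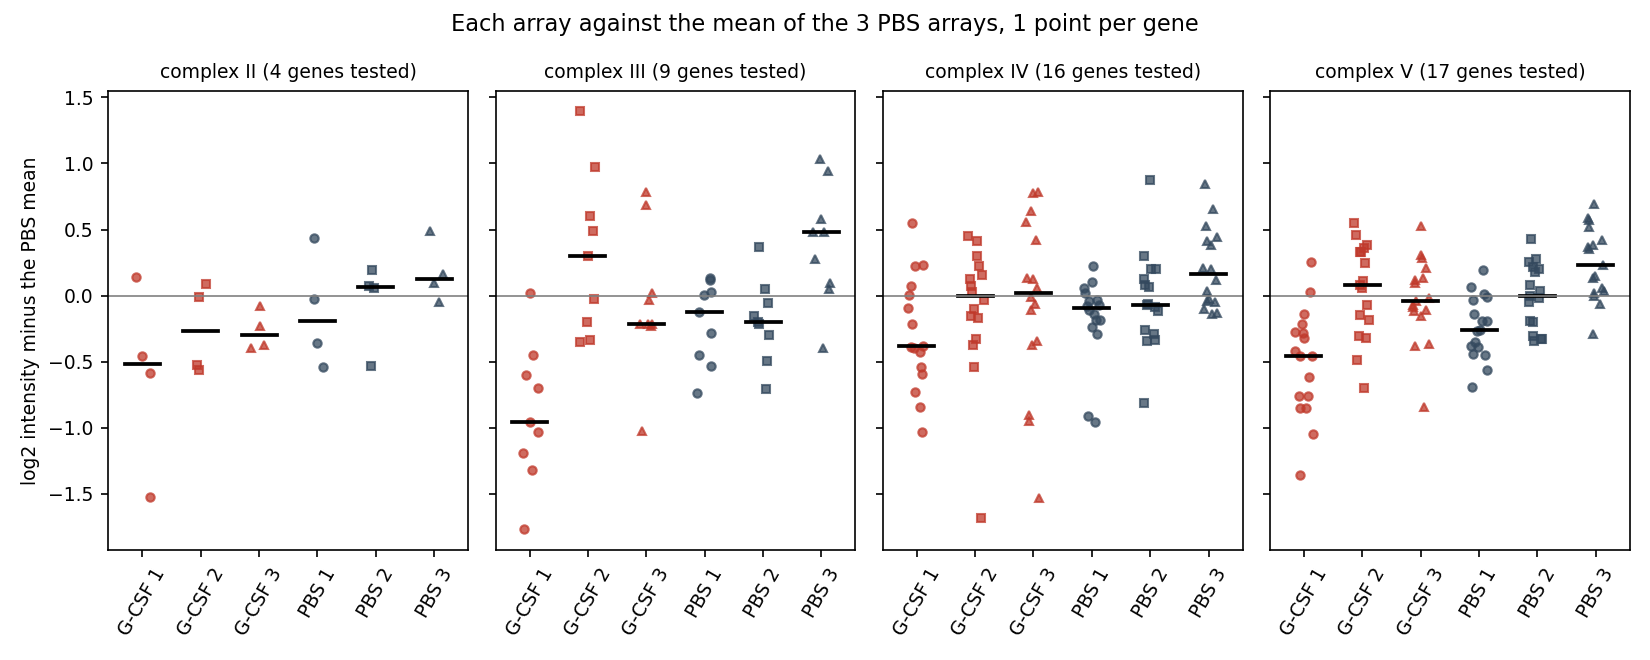
Log2 intensity of each tested gene of complexes II to V on each array, minus that gene's mean over the 3 PBS arrays. Points are genes and black bars are medians, and G-CSF replicate 1 has the lowest median in each panel, at -0.52, -0.96, -0.38 and -0.46.

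The members also varied more within groups than most genes did. The median residual SD was 0.43 over the members and 0.26 over all genes tested, and the limma 95% interval of a member's difference had a median half-width of 0.69. For 26 members this interval lay within -1 and 1, that is within a doubling or halving of the intensity. For the rest it reached beyond, so a change of that size could not be told from none.

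The 4 genes of complex II were each lower in the G-CSF arrays by their means. Their mean level was 7.59, 7.95 and 7.93 in G-CSF replicates 1 to 3, against 8.08, 8.15 and 8.37 in PBS replicates 1 to 3, and complex II was the only complex whose array means did not overlap. The median difference of the 4 genes was -0.31, and with any 1 array left out it lay between -0.41 and -0.26.

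Sdha encodes the flavoprotein that oxidises succinate. It lay at 8.97, 8.90 and 9.20 in the G-CSF arrays, against 9.40, 9.49 and 9.38 in the PBS arrays. The G-CSF arrays were all below the PBS arrays. The difference was -0.40 (SE 0.15, 95% interval -0.76 to -0.04, limma unadjusted p = 0.033, adjusted p = 0.761), and this was the only member interval that left out 0. Sdhb, the iron-sulfur protein that takes the electrons on, lay at 6.19, 7.15 and 7.31 in the G-CSF arrays, against 7.17, 7.77 and 8.20 in the PBS arrays. The groups overlapped because PBS replicate 1 lay below G-CSF replicate 3. The difference was -0.83 (SE 0.37, limma adjusted p = 0.851), and it was -0.48 without G-CSF replicate 1.

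The membrane anchors Sdhc and Sdhd, which bind ubiquinone, had smaller differences than Sdha and Sdhb. Sdhd lay at 6.72, 7.30 and 7.23 in the G-CSF arrays, against 6.95, 7.50 and 7.47 in the PBS arrays, a difference of -0.23 (SE 0.23). Each G-CSF array of Sdhd lay below the PBS array of the same number, although the numbers were not shown to pair the arrays. Replicate 1 was the low array in both groups, and without G-CSF replicate 1 the difference was -0.05. Sdhc lay at 8.50, 8.44 and 7.98 in the G-CSF arrays, against 8.79, 7.82 and 8.45 in the PBS arrays, a difference of -0.05 (SE 0.28). Both groups were spread widely, and the sign turned when PBS replicate 1 (0.17) or G-CSF replicate 3 (0.12) was left out.

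**Figure D2:**
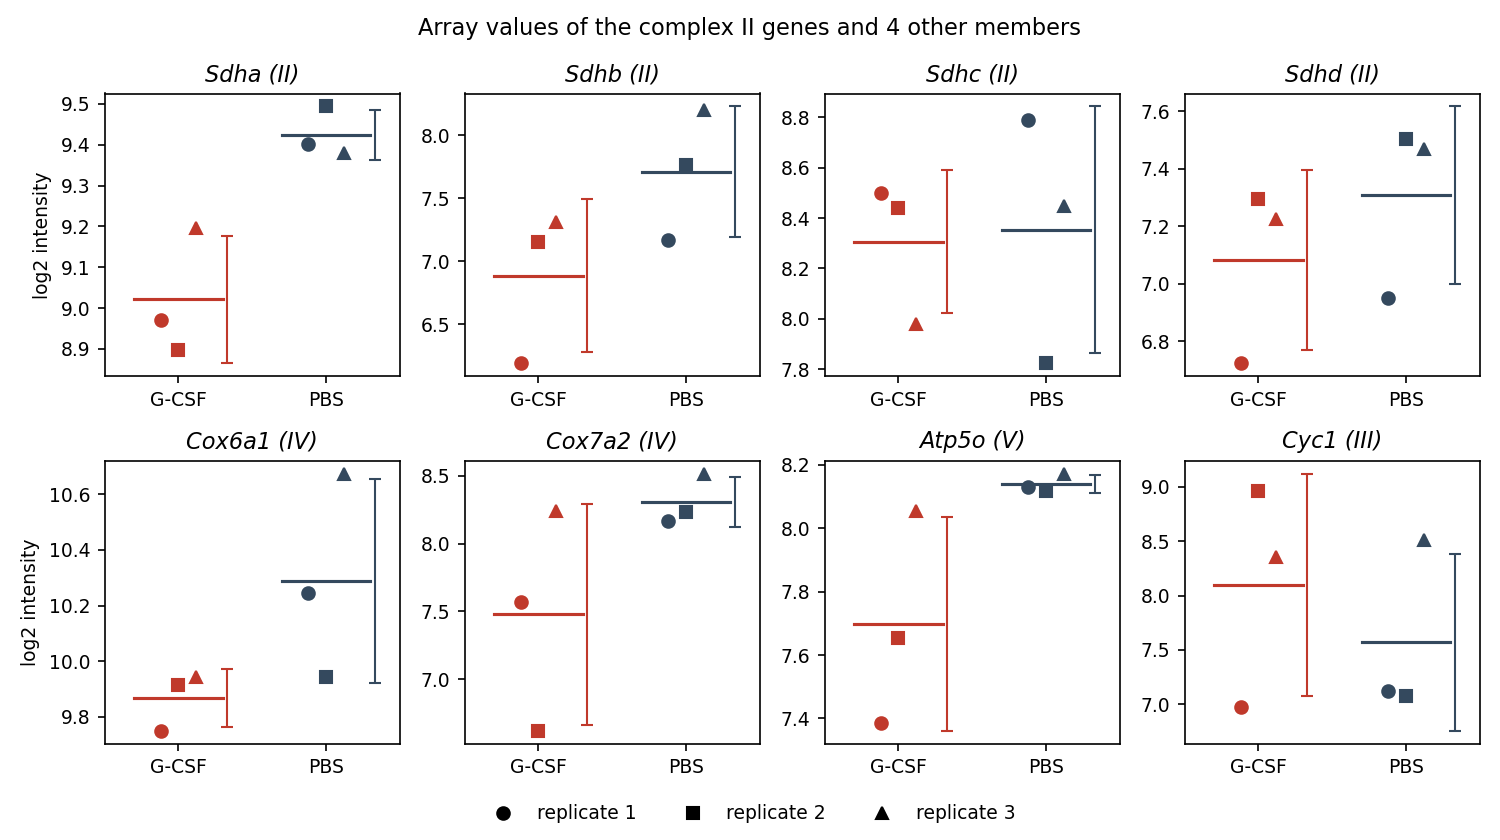
Log2 intensity on each array for the 4 complex II genes and 4 further members, with the group mean as a horizontal line and the SD as a bar (3 arrays per group, symbols by replicate, each panel with its own scale). In Sdha, Cox6a1 and Atp5o the G-CSF arrays do not overlap the PBS arrays, and Cyc1 has its highest value in G-CSF replicate 2.

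Complex III differed most between the G-CSF arrays. Its mean level was 7.32, 8.53 and 8.16 in G-CSF replicates 1 to 3, against 8.01, 8.02 and 8.61 in PBS replicates 1 to 3, so G-CSF replicate 1 was the lowest and G-CSF replicate 2 the second highest of the 6 arrays. In G-CSF replicate 1, 8 of 9 genes (88.9%) lay below all PBS arrays, against 28.2% of all genes. In G-CSF replicate 2, 4 of 9 (44.4%) lay above them, against 26% of all genes. The median difference was -0.29, with 7 negative and 2 positive, and 0 genes passed (smallest limma adjusted p = 0.926). Leaving out G-CSF replicate 1 gave -0.03, whereas leaving out the second or the third G-CSF array gave -0.58 or -0.61.

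The small subunits around the catalytic core were lower by their means. Uqcr10 lay at 7.31, 8.16 and 8.29 in the G-CSF arrays, against 7.97, 8.55 and 8.99 in the PBS arrays, a difference of -0.58 (SE 0.34). Uqcrh, the hinge protein that helps cytochrome c1 meet cytochrome c, lay at 9.79, 10.40 and 10.53 in the G-CSF arrays, against 10.46, 10.55 and 11.23 in the PBS arrays, a difference of -0.51 (SE 0.28). Uqcrq, which lies near cytochrome b, was at 6.14, 6.97 and 6.93 in the G-CSF arrays, against 7.19, 7.54 and 6.77 in the PBS arrays, a difference of -0.49 (SE 0.29). In these genes 1 or 2 of the G-CSF arrays fell among the PBS arrays, and G-CSF replicate 1 was the lowest of the 6. Uqcr11 lay at 6.09, 7.39 and 7.38 in the G-CSF arrays, against 7.42, 7.35 and 7.46 in the PBS arrays, a difference of -0.46 (SE 0.35). That difference came from G-CSF replicate 1, without which it was -0.03, and the gene's other probeset differed by -0.09. Uqcrb, which binds near a ubiquinone site, had the largest residual SD of any member (1.14) and differed by -0.26 (SE 0.70).

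The catalytic and core subunits of complex III all had their highest value in G-CSF replicate 2. Cyc1, cytochrome c1, lay at 6.97, 8.97 and 8.36 in the G-CSF arrays, against 7.13, 7.08 and 8.51 in the PBS arrays. Both groups held low and high arrays, and the difference of 0.53 (SE 0.58, limma adjusted p = 0.966) was the largest positive one of any member. Leaving out G-CSF replicate 2 gave 0.10, and leaving out the first G-CSF array gave 1.09. Uqcrfs1, the Rieske iron-sulfur protein, differed by 0.34 (SE 0.39), and the core proteins Uqcrc1 and Uqcrc2 by -0.14 (SE 0.30) and -0.29 (SE 0.39).

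Cycs is somatic cytochrome c, which shuttles electrons to complex IV and starts caspase activation once it is released. It lay at 8.64, 9.45 and 9.74 in the G-CSF arrays, against 8.31, 9.68 and 10.14 in the PBS arrays. Replicate 1 was the low array of both groups. The difference was -0.10 (SE 0.49), and its sign turned without G-CSF replicate 1 (0.22), PBS replicate 2 (0.05) or PBS replicate 3 (0.28).

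**Figure D3:**
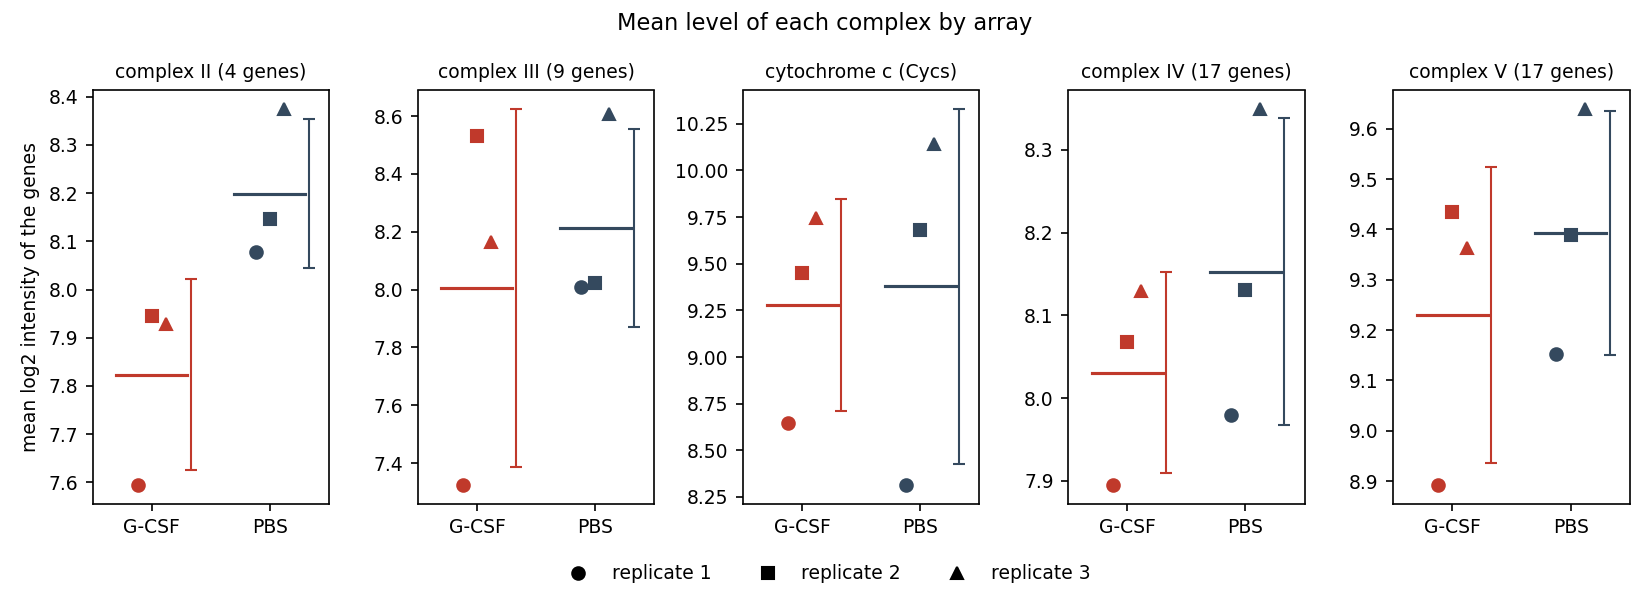
Mean log2 intensity over the genes of each complex, and of Cycs, on each array, with the group mean as a horizontal line and the SD as a bar (3 arrays per group, symbols by replicate, each panel with its own scale). In complex II the G-CSF arrays all lie below the PBS arrays, and in the other panels the groups overlap.

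In complex IV the broadly expressed subunits and the tissue-restricted forms had medians of opposite sign. Over the 9 broadly expressed subunits the median difference was -0.29, with 7 negative and 2 positive. Over the 6 tested forms known mainly from heart, muscle, lung or testis it was 0.17, with 2 negative and 4 positive. Of either class 0 genes passed, and the difference between the classes was not tested. The mean level over all 17 genes was 7.90, 8.07 and 8.13 in G-CSF replicates 1 to 3, against 7.98, 8.13 and 8.35 in PBS replicates 1 to 3, with overlap. Over the 16 tested genes the median was -0.15, and it was 0.04 without PBS replicate 3. With the lowest 50% left out instead of 25%, it was -0.29. That filter removed the dim restricted forms Cox7a1, Cox8b and Cox8c. It left Cox4i2 (0.23), Cox6a2 (0.30) and Cox6b2 (-0.30), of mixed sign.

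Subunit VIIa showed both signs. Cox7a2, its broadly expressed form, lay at 7.57, 6.62 and 8.24 in the G-CSF arrays, against 8.17, 8.23 and 8.51 in the PBS arrays, a difference of -0.83 (SE 0.38, limma adjusted p = 0.855). G-CSF replicate 2 was the lowest by far and G-CSF replicate 3 lay among the PBS arrays, and without G-CSF replicate 2 the difference was -0.40. Cox7a1, the heart and muscle form, lay at 5.58, 5.92 and 6.29 in the G-CSF arrays, against 5.32, 5.58 and 5.63 in the PBS arrays, a difference of 0.42 (SE 0.22). Its groups overlapped through G-CSF replicate 1. Cox7a2l, a factor that helps join complexes III and IV into supercomplexes, lay at 9.63, 10.06 and 8.50 in the G-CSF arrays, against 9.96, 10.24 and 9.90 in the PBS arrays, a difference of -0.63 (SE 0.38). Much of this came from G-CSF replicate 3, without which it was -0.19, and the gene's other probeset differed by -0.40.

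Subunits IV and VIa had the same arrangement of signs. Cox4i1, the general form of subunit IV, lay at 8.69, 9.80 and 8.78 in the G-CSF arrays, against 9.74, 9.81 and 9.62 in the PBS arrays, a difference of -0.64 (SE 0.30, limma adjusted p = 0.855). G-CSF replicates 1 and 3 lay well below the PBS arrays and G-CSF replicate 2 among them. Cox4i2, known from lung and as responsive to low oxygen, lay at 6.19, 5.85 and 6.51 in the G-CSF arrays, against 5.87, 6.08 and 5.91 in the PBS arrays, a difference of 0.23 (SE 0.20). Cox6a1, the general form of subunit VIa, lay at 9.75, 9.91 and 9.94 in the G-CSF arrays, against 10.24, 9.94 and 10.67 in the PBS arrays, a difference of -0.42 (SE 0.21, limma adjusted p = 0.877). The separation of its groups is marginal, since G-CSF replicate 3 and PBS replicate 2 were both 9.943 to 3 decimals. Cox6a2, the heart and muscle form, lay at 7.26, 6.94 and 6.85 in the G-CSF arrays, against 6.94, 6.63 and 6.58 in the PBS arrays, a difference of 0.30 (SE 0.18), with overlap.

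Subunit VIIb also had this arrangement, although its second form was too dim to test. Cox7b, the general form, lay at 9.53, 10.05 and 10.43 in the G-CSF arrays, against 9.42, 10.67 and 11.02 in the PBS arrays, a difference of -0.37 (SE 0.43), and Cox7b2 was 0.24 higher by its means, under the filter limit on all 6 arrays. Subunits VIb and VIII did not have it. Cox6b1, the general form of subunit VIb, lay at 11.01, 11.22 and 11.28 in the G-CSF arrays, against 11.21, 11.59 and 11.37 in the PBS arrays, a difference of -0.22 (SE 0.17). Cox6b2, the testis form, lay at 7.34, 6.79 and 6.96 in the G-CSF arrays, against 7.31, 6.52 and 8.18 in the PBS arrays, a difference of -0.30 (SE 0.40), and PBS replicate 3 set its sign (0.12 without it). For subunit VIII, the general form Cox8a differed by 0.13 (SE 0.32), the heart and muscle form Cox8b by 0.11 (SE 0.18) and the testis form Cox8c by -0.08 (SE 0.14). Cox8b was under the filter limit on 2 of the 6 arrays. Cox5a, Cox5b and Cox6c, further nuclear subunits of the enzyme, differed by -0.29 (SE 0.50), 0.29 (SE 0.31) and -0.01 (SE 0.31).

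Complex V, the ATP synthase, had differences near 0 in its catalytic head and larger ones in its membrane part, a contrast that was not tested. Its mean level was 8.89, 9.43 and 9.36 in G-CSF replicates 1 to 3, against 9.15, 9.39 and 9.64 in PBS replicates 1 to 3, with overlap. Of its 17 genes 14 were negative and 3 positive, with a median of -0.06, and the median was 0.07 without G-CSF replicate 1. Atp5a1 and Atp5b form the catalytic head. Their differences were -0.03 (95% interval -0.47 to 0.42) and -0.01 (95% interval -0.56 to 0.54). The central stalk genes Atp5c1, Atp5d and Atp5e, whose products turn within the head, differed by -0.14 (SE 0.22), 0.02 (SE 0.26) and -0.09 (SE 0.27).

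The membrane part beside the rotor was lower by its mean in each of 5 genes, with a median of -0.36. Its mean level was 9.45, 9.99 and 10.19 in G-CSF replicates 1 to 3, against 9.74, 10.27 and 10.63 in PBS replicates 1 to 3, with overlap. Atp5k (subunit e), which takes part in dimer formation, lay at 8.29, 9.47 and 9.63 in the G-CSF arrays, against 9.09, 9.83 and 10.04 in the PBS arrays, a difference of -0.52 (SE 0.40), and it was -0.10 without G-CSF replicate 1. Atp5mpl, a small proteolipid of the complex, lay at 9.74, 10.05 and 10.25 in the G-CSF arrays, against 10.09, 10.06 and 10.93 in the PBS arrays, a difference of -0.35 (SE 0.27), and it was -0.06 without PBS replicate 3. Atp5j2, Atp5l and Atp5md differed by -0.36 (SE 0.38), -0.06 (SE 0.24) and -0.41 (SE 0.42).

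The peripheral stalk keeps the head from turning with the rotor, and it held the 1 gene of complex V whose groups did not overlap. Atp5o, the subunit that confers oligomycin sensitivity and ties the stalk to the head, lay at 7.39, 7.65 and 8.06 in the G-CSF arrays, against 8.13, 8.12 and 8.17 in the PBS arrays. The PBS arrays lay close together and above all G-CSF arrays. The difference was -0.44 (SE 0.20, limma adjusted p = 0.853), and it was -0.29 without G-CSF replicate 1. The other stalk genes Atp5pb, Atp5h and Atp5j differed by -0.06 (SE 0.21), -0.06 (SE 0.38) and 0.10 (SE 0.26).

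Subunit c of the rotor ring is encoded by 3 genes whose products are known to differ in their import sequences and to give the same mature protein. Atp5g2 lay at 8.74, 9.01 and 8.31 in the G-CSF arrays, against 9.17, 9.44 and 8.86 in the PBS arrays, a difference of -0.47 (SE 0.24, limma adjusted p = 0.872). The groups overlapped through G-CSF replicate 2. Atp5g1 lay at 7.77, 7.62 and 7.63 in the G-CSF arrays, against 7.32, 7.77 and 7.45 in the PBS arrays, a difference of 0.16 (SE 0.17). Atp5g3 lay at 8.71, 9.94 and 9.85 in the G-CSF arrays, against 9.37, 9.23 and 10.08 in the PBS arrays, a difference of -0.06 (SE 0.38), and its sign turned without G-CSF replicate 1 (0.33) or PBS replicate 3 (0.20). Whether the 3 genes differ from each other was not tested.

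**Figure D4:**
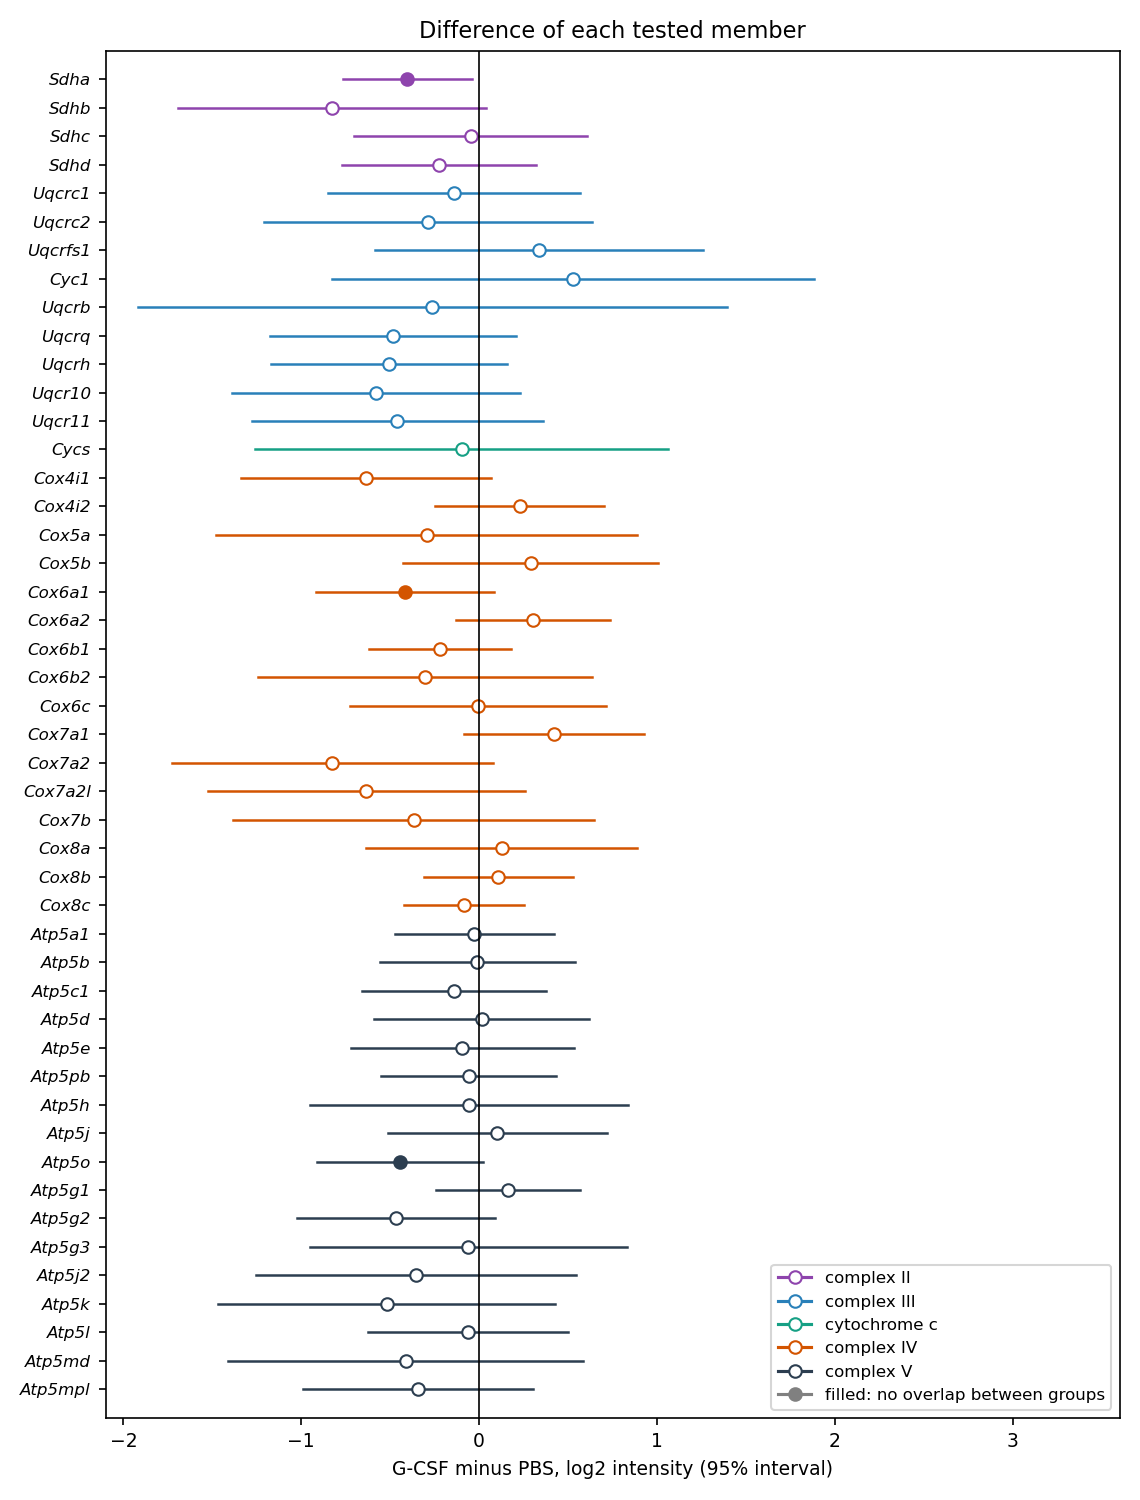
Difference in log2 intensity (G-CSF minus PBS, limma) of the 47 tested members with 95% intervals, coloured by complex. Of the points, 36 lie left of 0, the interval of Sdha leaves out 0, and filled points mark the 3 genes whose groups did not overlap.

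Genes that feed or build the complexes were read beside them. In the tricarboxylic acid cycle with pyruvate dehydrogenase, 0 of 16 tested genes passed, 11 were negative and 5 positive, and the median was -0.24. It was -0.44 without PBS replicate 1 and -0.14 without PBS replicate 2. Pdha1, of the pyruvate dehydrogenase step that feeds the cycle, lay at 6.64, 6.66 and 6.59 in the G-CSF arrays, against 7.38, 8.05 and 7.73 in the PBS arrays. Its groups were well apart, with a difference of -1.09 (SE 0.20, limma adjusted p = 0.257). Idh3a, of isocitrate dehydrogenase, differed by -0.55 (SE 0.17, limma adjusted p = 0.639) and Suclg2, of the enzyme that forms succinate, by -0.68 (SE 0.25, limma adjusted p = 0.749), both without overlap. In this list 3 of 16 genes were lower without overlap and 0 higher, against 5.05% and 5.77% of all genes.

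Of the assembly factors for complexes II to V, 36 of 41 were measured and 33 tested, with 22 negative, 11 positive, 0 past the test and a median of -0.12. Leaving out the third G-CSF array gave a median of -0.24, and leaving out the second gave -0.05. Those with the smallest p were the complex III factor Uqcc3, at -0.61 (SE 0.26, limma adjusted p = 0.837), Coa6, which helps supply copper to complex IV, at -0.59 (SE 0.26, limma adjusted p = 0.851), and the complex IV factor Surf1, at -0.87 (SE 0.40, limma adjusted p = 0.855). Surf1 was -0.47 without G-CSF replicate 1, and Uqcc3 -0.38 without PBS replicate 3. Of the 33 tested, 3 (Ttc19, Atpaf1 and Tmem70) were lower without overlap and 0 higher, against 5.05% and 5.77% of all genes. Among 19 regulators of mitochondrial biogenesis and DNA upkeep, 11 were negative, 8 positive and 0 passed, with a median of -0.07 that turned positive without G-CSF replicate 1 (0.08) or PBS replicate 3 (0.03). Polg2, an accessory subunit of the mitochondrial DNA polymerase, was higher without overlap, by 0.42 (SE 0.17, limma adjusted p = 0.796). It was 1 of the 19 regulators, where 5.77% of all genes were higher without overlap. The helicase Twnk differed by -0.42 (SE 0.25) and the ribosomal RNA methyltransferase Tfb1m by -0.74 (SE 0.45). Tfb1m was -1.28 without G-CSF replicate 2 and -0.33 when the third G-CSF array was left out, and Twnk -0.23 without G-CSF replicate 2. Of 15 carriers and electron donors 10 were negative, 5 positive and 0 passed, with a median of -0.05 that was -0.11 without G-CSF replicate 2 and turned positive when G-CSF replicate 1 (0.06) or PBS replicate 3 (0.07) was left out. Of these, sulfite oxidase Suox differed by -0.30 (SE 0.21), sulfide oxidoreductase Sqor by 0.45 (SE 0.35) and the ADP/ATP carrier Slc25a4 by -0.25 (SE 0.21). Sqor ran from 0.15 without PBS replicate 1 to 0.86 without PBS replicate 3, Suox was -0.13 without PBS replicate 2, and Slc25a4 ran from -0.44 (the same array) to -0.14 (G-CSF replicate 2).

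The other large mitochondrial gene groups leaned the same way. The median was -0.35 over 35 complex I genes (25 negative) and -0.21 over 76 tested mitochondrial ribosomal protein genes (58 negative). Of all genes tested, 49.7% were negative. In both sets 0 genes passed and the array means overlapped. G-CSF replicate 1 was again the lowest array (7.52 and 6.72) and PBS replicate 3 the highest (8.48 and 7.55). Both sets share all 6 arrays with complexes II to V, and no difference between the groups of genes was tested.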

How the data were processed

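Expression was measured on 6 MoGene 1.0 ST arrays of amplified RNA, 3 per group. The deposited values are linear intensities, and RMA is the tool that the submitters' processing notes name. Its software was not given in the labels. Log2 was taken here. Array median intensities ran from 56.2 to 61.7, and with so few arrays their number sets the precision.

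Of 35554 probesets, 21789 had 1 symbol in the platform annotation, 1621 had several and 12144 were not listed. Where a gene had several single-symbol probesets, the brightest was used. Near-identical copies of these genes, such as pseudogenes, may share signal.

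Groups were compared with limma 3.58.1 (lmFit, eBayes) in R 4.3.3, two-sided, with no covariate and a threshold of 0.05, after the script was tested on simulated data. Figures were drawn with matplotlib 3.10.9. Members and lists were chosen with earlier results of these data known. Given with array values or full statistics were complex II, Cyc1, Cycs, members without overlap, the 4 smallest p per complex, isoform sets and the 3 smallest p per list. Alternatives changed the filter, normalization, variance model, array weights, probeset rule, replicate block and arrays used.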

Additional observations from a re-analysis of the deposited data

How the results depend on the processing

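Under each of 14 alternatives, 0 members and 0 genes of the 4 pathway lists passed the threshold. With 1 array left out, the members without overlap numbered 3 to 11 lower and 0 to 1 higher. The higher ones were 0 to 2.13% of the members, against 9.88% to 11.2% of all genes. The 11 (23.4% of the members) came without PBS replicate 1, where 11.6% of all genes lay lower without overlap, and the 3 (6.38%) without G-CSF replicate 1, where 9.1% did. With all arrays 5.05% of all genes did. With no filter 1 (2.08%) was higher, Cox7b2, against 5.58% of all genes. At a limma unadjusted p under 0.05 there were 0 to 4 lower and 0 to 1 higher members with 1 array left out. The 4 (8.51%) came without G-CSF replicate 2 or G-CSF replicate 3, where 3.72% and 3.48% of all genes were lower. The 0 came without G-CSF replicate 1 (2.37% of all genes) or PBS replicate 3 (2.43%). The 1 higher (2.13%) came without G-CSF replicate 1, against 3.35% of all genes. With trend and robust settings 0 were lower, against 2.95% of all genes. With the replicate block 7 (14.9%) were lower, against 4.92% of all genes. The replicate numbers were not shown to pair the arrays. Deviations from the group means of same-numbered arrays correlated over all genes by 0.29, 0.02 and 0.19. There G-CSF replicate 2 correlated best with PBS replicate 3 (0.10). Over the 47 tested members the same-numbered arrays correlated by 0.48, 0.08 and 0.48, each the highest value of its G-CSF array. With 1 array left out, positive differences numbered 10 to 21, and the medians ran from -0.23 to 0.0375 in complex IV and from -0.12 to 0.0832 in the biogenesis regulators. The median of the carriers and electron donors also took both signs (-0.11 to 0.07), as did that of complex V (-0.25 to 0.07). Leaving out single markers was chosen after seeing the data. Of the 40 genes followed in this check, 6 took both signs with 1 array left out. They were Cycs (-0.63 to 0.28), Sdhc (-0.31 to 0.17), Atp5g3 (-0.28 to 0.33), Cox8a (-0.13 to 0.39), Cox8b (-0.022 to 0.21) and Cox6b2 (-0.71 to 0.12). Members outside these 40, such as Uqcrb, Uqcrc1, Uqcrc2, Cox5a, Cox7b and Atp5b, were not followed in this way, and their signs may turn too. Cycs was 0.0113 with array weights. Beyond the removal of arrays, the cause was not tested.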

Other observations

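Cox7c, which encodes a further small subunit of complex IV, was outside the rule because its 3 probesets also carry the symbol Gm12338. They differed by -0.11, -0.14 and -0.24 between the G-CSF and PBS arrays, with overlap in each.

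Of the 13 members with several probesets, 11 had differences of 1 sign in all of them, and the widest range within a gene was 0.36, in Uqcr11. Within the groups, G-CSF replicate 1 was the lowest array for 31 of 47 tested members, and PBS replicate 1 for 22. PBS replicate 3 was the highest of its group for 29.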
